A study of Homo sapiens with 8 samples.

Results

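A set of 8 genes of hyaluronan biology was followed in tumours grown from SK-OV-3, a human ovarian cancer cell line: the synthases HAS2 and HAS3, the breakdown genes CEMIP, HYAL1 and HYAL2, the receptors CD44 and HMMR, and the hyaluronan-modifying protein gene TNFAIP6. They were put together by function, with earlier results of the same arrays known, among them a higher CEMIP level in BORA tumours. For each gene the brightest transcript cluster (a group of probes that reports a gene) with that symbol was taken. Of the 8 genes, 7 had a cluster, out of 17709 clusters that carry a symbol, and each of the 7 had 1 cluster. HYAL1 was not analysed here, because the annotation used names no cluster for it.

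Total RNA of 8 xenograft tumours was measured on Affymetrix arrays, 1 array per tumour. In 4 tumours the implanted cells carried pIND_BORA, a vector that overexpresses BORA, and in the other 4 pIND_EV, the empty vector (EV). All tumours grew in nude mice, which lack a thymus and therefore most T cells but keep other leukocytes. The labels give no age of the mice, no time of growth, and do not state if each tumour came from its own mouse or if a group stands for more than 1 transfected pool or clone, so the p-values cover no more than sample-to-sample spread, part of which may be technical. BORA, the cofactor through which Aurora A activates PLK1, was at 12.76 ± 0.23 in BORA tumours and 6.63 ± 0.57 in EV tumours (log2, SD, n = 4 each), without overlap.

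Hyaluronan is a long, unbranched sugar polymer of the extracellular matrix. Synthases in the plasma membrane build it from UDP-glucuronic acid and UDP-N-acetylglucosamine and push it out of the cell. Hyaluronidases, lysosomal enzymes and CEMIP take part in cutting it, and long and short chains are bound by receptors such as CD44. Ovarian cancer cells bind hyaluronan of the mesothelium through CD44.

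Values are the deposited log2 signals. The background limit of each array was set at the 95th percentile of its 612 negative controls, which lay between 7.62 and 8.24. From 36.3% (EV replicate 1) to 44.3% (BORA replicate 2) of all clusters exceeded it on an array. EV replicate 1 stood apart: over all clusters it correlated with the other arrays at 0.943 to 0.954, where the other 7 correlated among themselves at 0.981 to 0.992. All 9 measured markers of squamous epithelium had their highest value there, KRT1 with 14.15 against at most 4.95 elsewhere and KRT5, the highest of the list, with 17.48 against at most 14.998. PAX8, EPCAM and KRT8, genes of the labelled carcinoma type, were above background on all 8 arrays (12.02 to 14.32, 13.52 to 14.76 and 15.36 to 16.70), and WT1 was at 4.57 to 5.22, below it on all 8. Of the 7 measured genes of this list, 4 were above background on all arrays and 3 below it on all. PAX8 was at 13.86 to 14.32 in BORA tumours against 12.02 to 13.68 in EV tumours. This difference did not pass (limma adjusted p = 0.199 over 8 arrays, 0.121 without EV replicate 1). Because EV replicate 1 stood apart, differences are given over 8 arrays and again without it. Probes bind RNA of the mouse host only where sequences allow, and in bulk RNA fewer cells of a type and less RNA per cell cannot be told apart.

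CEMIP and CD44 were the 2 members whose groups did not overlap, and the 250 bases before their annotated starts are shown to place them in the genome. Both come from RefSeq on GRCh38.p14, plus strand, 5′ to 3′: CEMIP from chr15:80779120-80779369 and CD44 from chr11:35138921-35139170. Capitals mark the TATAAA match that begins 30 bases before the CEMIP start.
CEMIP: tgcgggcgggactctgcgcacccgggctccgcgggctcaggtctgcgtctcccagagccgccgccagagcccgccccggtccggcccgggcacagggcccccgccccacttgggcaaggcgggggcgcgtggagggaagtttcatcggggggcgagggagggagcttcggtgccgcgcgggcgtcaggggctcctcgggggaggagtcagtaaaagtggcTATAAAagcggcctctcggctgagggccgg
CD44: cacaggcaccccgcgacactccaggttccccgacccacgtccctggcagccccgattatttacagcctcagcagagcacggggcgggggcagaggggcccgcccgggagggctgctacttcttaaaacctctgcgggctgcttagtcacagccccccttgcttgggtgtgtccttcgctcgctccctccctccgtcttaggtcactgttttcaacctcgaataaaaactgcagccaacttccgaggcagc
The CEMIP stretch held 28 CG pairs and was 74.4% G and C, and the CD44 stretch held 15 and was 62.4%, where the median over 35116 promoters was 11 CG pairs and 58.0%. In all, 4 motifs were searched on both strands, and no matches overlapped in the members. TATAAA, known as a core promoter element, occurs in 10.7% of all promoters over the same 250 bases. The AP-1 motif (TGANTCA) occurs in 6.57% of them, an NF-kB motif in 1.73%, and CACGTG, an E-box, in 6.34%. The CD44 stretch held none of them. Of the other members, TNFAIP6 held the AP-1 motif beginning 129 bases before its start and HAS3 held CACGTG beginning 66 bases before its start, while HYAL1, HYAL2 and HMMR held none. The promoter of HAS2 was not used here.

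Among the breakdown genes, CEMIP (TC1500008046.hg.1) was higher in every BORA tumour than in any EV tumour. CEMIP, also called KIAA1199, is a secreted hyaluronan-binding protein needed for the cutting of hyaluronan outside the cell. Its log2 values were 6.95, 7.63, 8.63 and 7.85 in BORA replicates 1 to 4 and 6.23, 5.50, 4.54 and 5.25 in EV replicates 1 to 4. The lowest BORA tumour, replicate 1, lay above the highest EV tumour, replicate 1, and BORA replicate 3 stood highest. The means were 7.76 ± 0.69 and 5.38 ± 0.70 (SD, n = 4 each), a difference of 2.38 on the log2 scale (SE 0.41). Without EV replicate 1 the EV mean was 5.10 ± 0.50 (SD, n = 3) and the difference 2.66 (SE 0.35).

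The CEMIP signal was dim. It exceeded background in BORA replicates 2 and 3 and in no EV tumour. In BORA tumours it lay above 91.3% to 96.9% of the negative control probes of the array, and in EV tumours above 52.1% to 83.3%. Against the background level in place of the EV values the BORA mean was not higher, so no fold is given. The size of the CEMIP difference therefore rests on values near background. All 4 BORA tumours lay above every EV tumour, but CEMIP was listed with its higher level in these arrays already known.

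HYAL2 (TC0300013984.hg.1) encodes a hyaluronidase anchored to the cell surface that starts the breakdown of long chains. Its values were 5.64, 5.86, 5.87 and 5.97 in BORA replicates 1 to 4 and 5.72, 5.63, 5.90 and 5.61 in EV replicates 1 to 4. The groups overlapped, every value was below background, and the difference was 0.12 (SE 0.14), or 0.12 (SE 0.16) without EV replicate 1. HYAL2 lies beside HYAL1 on chromosome 3, with HYAL3 on the other side of HYAL1 beyond NAA80. HYAL3 was also below background on all 8 arrays.

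The synthases were at background in all tumours. HAS2 (TC0800011646.hg.1), which makes long chains, was at 4.07, 5.31, 4.89 and 4.33 in BORA replicates 1 to 4 and at 3.89, 4.50, 4.17 and 4.42 in EV replicates 1 to 4. BORA replicates 2 and 3 were the highest, but the groups overlapped, with a difference of 0.41 (SE 0.27) and of 0.29 (SE 0.27) without EV replicate 1. HAS3 (TC1600008218.hg.1), the synthase of shorter chains, was at 5.16, 4.79, 4.89 and 5.16 in BORA replicates 1 to 4 and at 5.05, 4.81, 5.07 and 4.76 in EV replicates 1 to 4. The groups were interleaved, and the difference was 0.075 (SE 0.15), or 0.12 (SE 0.17) without EV replicate 1.

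**Figure D1:**
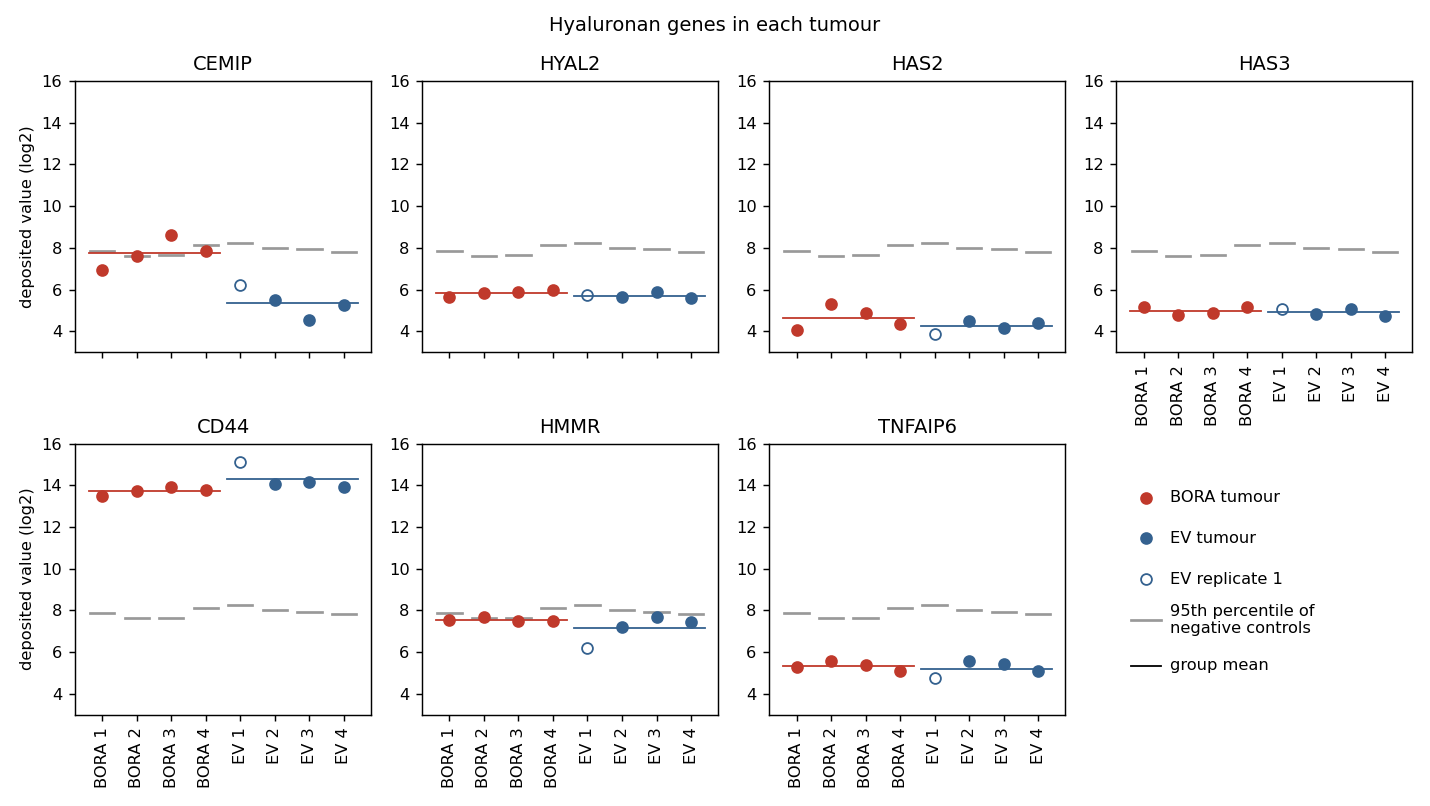
Deposited log2 value of the 7 measured genes (vertical axis) in each of the 4 BORA (red) and 4 EV (blue) tumours, with EV replicate 1 as an open circle, group means as lines and the 95th percentile of the negative controls of each array as grey bars. CEMIP is higher in all BORA tumours (6.95 to 8.63 against 4.54 to 6.23), CD44 is far above background everywhere, and HAS2, HAS3, HYAL2 and TNFAIP6 lie below it on all arrays.

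Among the receptors, CD44 (TC1100007273.hg.1) was strongly expressed in every tumour and was slightly lower in BORA tumours. CD44 is the main hyaluronan receptor at the cell surface. Its values were 13.49, 13.75, 13.93 and 13.76 in BORA replicates 1 to 4 and 15.11, 14.05, 14.15 and 13.93 in EV replicates 1 to 4, above at least 97.0% of all clusters on every array. The groups did not overlap, but BORA replicate 3 (13.926) and EV replicate 4 (13.931) almost met, and EV replicate 1 stood above the rest. The means were 13.73 ± 0.18 and 14.31 ± 0.54 (SD, n = 4 each), a difference of -0.58 (SE 0.26), which is a level 1.49-fold higher in EV tumours. Without EV replicate 1 the difference was -0.31 (SE 0.17), or 1.24-fold, and the groups still did not overlap.

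The CD44 cluster lists 8 transcripts, so its value does not separate the standard form from the variant forms. The squamous markers that were highest in EV replicate 1 had a summed level of 18.44 there on the log2 scale. Their sum was 13.12 to 14.02 over EV replicates 2 to 4 and 12.86 to 15.03 over the BORA group. KRT5 weighed most in these 7 sums, at 13.06 to 13.99 and 12.78 to 14.998 in the same order. CD44 is also known as a gene of squamous epithelium, and the part of these cells in its level in EV replicate 1 was not tested. Of the 7 measured partners of CD44, 0 passed the test in either fit (limma, Benjamini-Hochberg over 17709 clusters), with 0 at an unadjusted p under 0.05 over 8 arrays and 1, SPP1, without EV replicate 1. Of all clusters, 0.102% passed over 8 arrays and 0.514% without EV replicate 1, and 14.5% and 15.3% had an unadjusted p under 0.05. SPP1, which encodes the CD44 ligand osteopontin, was at 12.99, 12.99, 13.97 and 13.25 in BORA replicates 1 to 4 and at 7.68, 10.96, 12.25 and 13.41 in EV replicates 1 to 4. Its difference was 2.23 (SE 1.00, adjusted p = 0.350) and 1.10 without EV replicate 1 (SE 0.46, adjusted p = 0.294). ESRP1, a splicing factor that promotes inclusion of the variable exons of CD44, spread widely among EV tumours, at 13.76, 11.25, 12.15 and 7.29 in replicates 1 to 4, and little among BORA tumours, at 9.57, 9.62, 9.46 and 9.08. Its difference was -1.68 (SE 1.10, adjusted p = 0.508) and -0.80 without EV replicate 1 (SE 0.86, adjusted p = 0.703). With each of the 8 arrays left out in turn it ranged from -2.95, without EV replicate 4, to -0.80.

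HMMR (TC0500009320.hg.1), or RHAMM, is made in dividing cells, binds hyaluronan and also works at the mitotic spindle. It was at 7.54, 7.69, 7.48 and 7.49 in BORA replicates 1 to 4 and at 6.21, 7.22, 7.70 and 7.44 in EV replicates 1 to 4. EV replicate 1 was the lowest, the other 7 tumours lay within 7.22 to 7.70, and 1 value, that of BORA replicate 2, exceeded background. The difference was 0.41 (SE 0.29) over 8 arrays and 0.095 (SE 0.17) without EV replicate 1. All 10 spindle and G2/M genes of a list drawn up beside HMMR also had their lowest value in EV replicate 1. For BUB1, a spindle checkpoint kinase, that value was 7.26 against 8.35 to 9.36 elsewhere, and for KIF11, a spindle motor, 7.39 against 8.75 to 9.79. None of the 10 passed in limma in either fit, with 0 at an unadjusted p under 0.05 over 8 arrays and 1, lower in BORA tumours, without EV replicate 1. Of all clusters, 0.102% and 0.514% passed in these fits, and 14.5% and 15.3% had an unadjusted p under 0.05. The differences of BUB1 and KIF11 went from 0.65 and 0.61 over 8 arrays (adjusted p = 0.451 and 0.486) to 0.29 and 0.22 without it. Over the whole list, 9 of 10 genes had a difference above 0 over 8 arrays (median 0.48), and 4 of 10 did without EV replicate 1 (median -0.056).

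TNFAIP6 (TC0200009662.hg.1), or TSG-6, is induced by TNF and interleukin 1 and transfers heavy chains of inter-alpha-inhibitor onto hyaluronan. It was at 5.30, 5.55, 5.37 and 5.12 in BORA replicates 1 to 4 and at 4.74, 5.56, 5.45 and 5.07 in EV replicates 1 to 4, always below background. The difference was 0.13 (SE 0.20) and turned to -0.029 (SE 0.18) without EV replicate 1. Of the other listed genes induced by the same cytokines, all 9 measured had a difference above 0 in both fits, with a median of 0.97 over 8 arrays. Of all clusters, 46.6% had a difference above 0 over 8 arrays, and their median was -0.026. None of the 9 passed in limma, and 5 were higher at an unadjusted p under 0.05 in each fit, a limit that 14.5% of all clusters met in either direction over 8 arrays and 15.3% without EV replicate 1. CXCL8, the neutrophil chemokine, was at 10.81, 14.44, 15.10 and 13.56 in BORA replicates 1 to 4 and at 9.02, 10.79, 9.96 and 11.32 in EV replicates 1 to 4 (difference 3.21, SE 0.86, adjusted p = 0.188). Without EV replicate 1 its difference was 2.79 (SE 0.79, adjusted p = 0.138). CCL2, a monocyte chemokine, had a difference of 1.58 (SE 0.48, adjusted p = 0.222), or 1.56 without EV replicate 1 (adjusted p = 0.173). CCL2 groups overlapped, at 5.91 to 8.05 in BORA and 4.62 to 6.05 in EV tumours. CCL2 was dim, above background in BORA replicate 3 alone, so its difference rests on values near or below background. BORA replicate 1, the lowest BORA tumour for CEMIP, was also the lowest of the BORA tumours for CXCL8 and CCL2, and BORA replicate 3 was the highest for all 3 genes. The EV tumours did not share an order. CEMIP was highest in EV replicate 1 (6.23), where CXCL8 was lowest (9.02), and CXCL8 and CCL2 were highest in EV replicate 4. CEMIP and CCL2 were both lowest in EV replicate 3 (4.54 and 4.62). All EV values of these 2 genes were below background, where an order among tumours carries little weight.

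**Figure D2:**
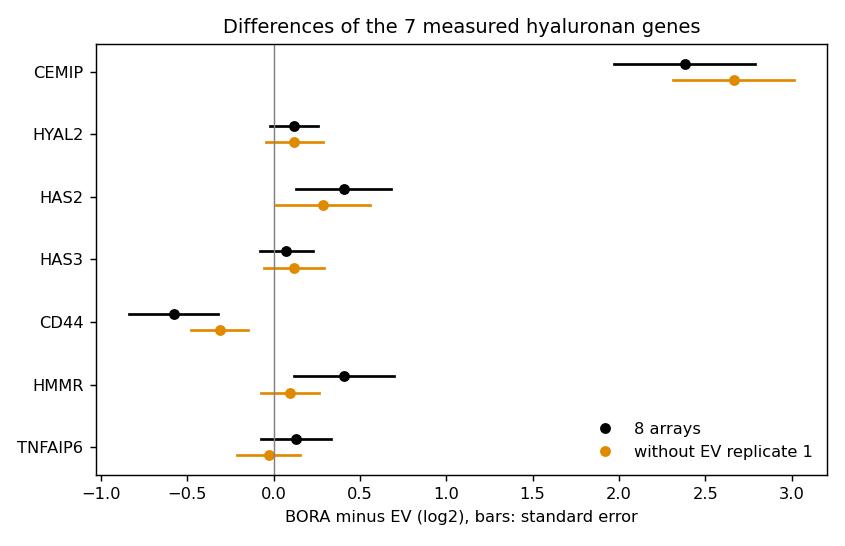
Difference between BORA and EV tumours on the log2 scale (horizontal axis, points) with its standard error (bars) for the 7 measured genes, over 8 arrays (black) and without EV replicate 1 (orange). CEMIP stands at 2.38 and 2.66, CD44 at -0.58 and -0.31, and the remaining 5 between -0.029 and 0.41.

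In the limma fit over 17709 clusters, 0 of the 7 measured members passed an adjusted p of 0.05 over 8 arrays, where 0.102% of all clusters rose and 0% fell. At an unadjusted p under 0.05, which 14.5% of all clusters met, CEMIP was higher and CD44 lower over 8 arrays, and CD44 did not meet it without EV replicate 1. Without EV replicate 1, CEMIP alone passed, 1 of 7, where 0.435% of all clusters rose and 0.0791% fell. The groups did not overlap for 2 of 7 members in either fit, against 9.36% of all clusters over 8 arrays and 14.3% without EV replicate 1. The median difference of the 7 members was 0.13 over 8 arrays and 0.12 without EV replicate 1, against -0.026 and -0.029 over all clusters. Since the genes were chosen with results of this comparison known, these counts describe them and support no statement about the set.

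The 3 clusters whose profile over the 8 arrays was nearest to that of CEMIP, by root mean square difference after each was centred on its own mean, were KCNAB1 (0.44 log2 units), CSMD1 (0.52) and CENPT (0.55). KCNAB1 was at 6.60 to 8.14 in BORA tumours and 4.42 to 4.91 in EV tumours, CSMD1 at 6.70 to 8.04 and 4.83 to 4.98, and CENPT at 6.30 to 7.31 and 4.80 to 5.05. All 3 were highest in BORA replicate 3, as CEMIP was, and were nearly level among EV tumours, where CEMIP ranged from 4.54 to 6.23. Since they were picked for likeness to CEMIP over these same arrays, a shared peak follows largely from that choice. Like CEMIP they were dim, above background on 1, 1 and 0 of the 8 arrays.

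**Figure D3:**
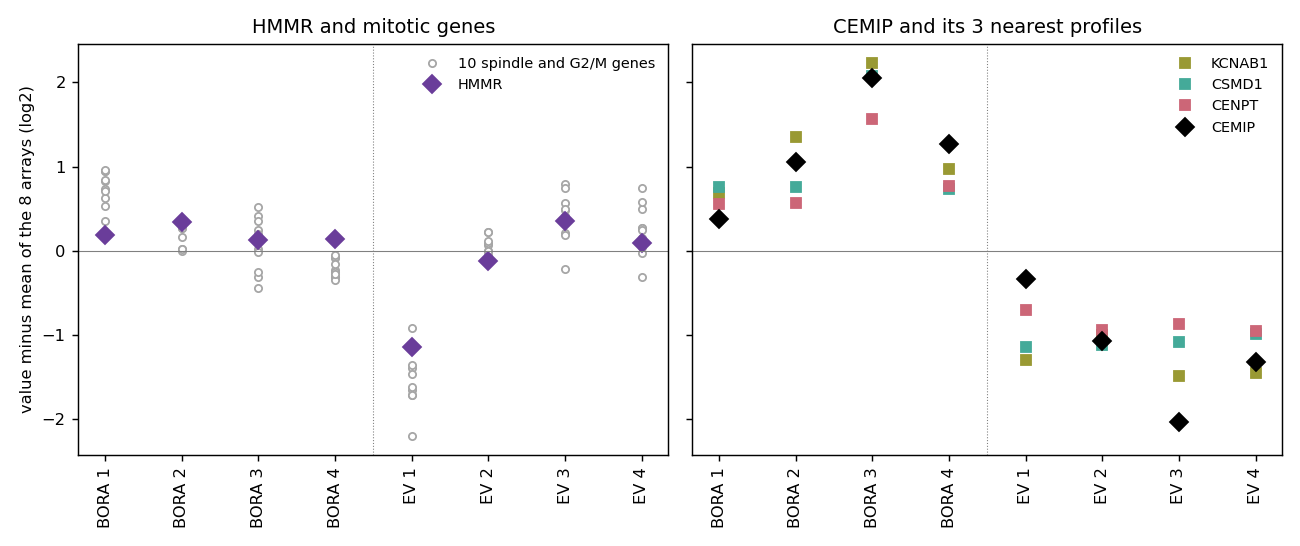
Values centred on the mean of the 8 arrays (log2, vertical axis) by tumour, for HMMR (diamonds) with 10 spindle and G2/M genes (open circles) on the left and for CEMIP (diamonds) with its 3 nearest profiles (squares) on the right. HMMR and all 10 mitotic genes are lowest in EV replicate 1, and CEMIP, KCNAB1, CSMD1 and CENPT are highest in BORA replicate 3.

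Beyond the members, 34 of 38 listed genes of the hyaluronan pathway were measured. In limma 0 of 34 passed in either direction in either fit, where 0.102% of all clusters passed over 8 arrays and 0.514% without EV replicate 1. Before adjustment, 3 had a p under 0.05 with a higher level and 5 with a lower one over 8 arrays (23.5% of the 34, against 14.5% of all clusters), and 2 and 2 without EV replicate 1 (11.8% against 15.3%). Of the 34, 25 were below background on all arrays and 6 were above it on all. On a single array, 36.3% to 44.3% of all clusters exceeded background, so a dim signal is not particular to these genes.

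The breakdown genes outside the members included the paralogue of CEMIP. CEMIP2, or TMEM2, a membrane protein described as a cell surface hyaluronidase, was at 10.03, 10.37, 9.96 and 9.91 in BORA replicates 1 to 4 and at 8.51, 9.31, 8.95 and 9.999 in EV replicates 1 to 4. It was above background on all arrays, and EV replicate 4 lay inside the BORA range. The difference of 0.88 (SE 0.29) did not pass (limma adjusted p = 0.244), nor did that of 0.65 without EV replicate 1 (SE 0.24, adjusted p = 0.239). GUSB, the lysosomal beta-glucuronidase that trims hyaluronan fragments, was at 7.12 to 7.58 in BORA tumours and 6.63 to 7.09 in EV tumours, below background throughout. Its difference was 0.55 (SE 0.18, adjusted p = 0.233), or 0.53 without EV replicate 1 (adjusted p = 0.235). In all, 5 of 6 measured breakdown genes had a difference above 0 in both fits, with a median of 0.14 over 8 arrays. Of all clusters, 46.6% had a difference above 0 over 8 arrays and 46.1% without EV replicate 1. Of the 6 genes, 4 were below background on every array, where signs carry little weight.

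Of 5 measured enzymes that make the UDP-sugar precursors, 4 were above background on all arrays, and none passed. UAP1, which forms UDP-N-acetylglucosamine, was at 9.55 to 9.90 in BORA tumours and 9.14 to 9.54 in EV tumours (difference 0.37, SE 0.15, limma adjusted p = 0.324; 0.27 without EV replicate 1, adjusted p = 0.447). GNPNAT1, an acetyltransferase of the same route, had a difference of 0.29 (SE 0.20, adjusted p = 0.515), or 0.26 without EV replicate 1 (adjusted p = 0.608). UGDH, which makes UDP-glucuronic acid and was picked out after its values were seen, was at 10.70 in EV replicate 1 and at 11.90 to 12.42 in the other 7 tumours. Its difference turned from 0.22 (SE 0.36) to -0.19 (SE 0.17) without that array. All 5 measured precursor genes had a difference above 0 over 8 arrays, and 3 without EV replicate 1, against 46.6% and 46.1% of all clusters.

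Matrix partners and the remaining receptors were mostly at background. Of 17 proteoglycans, link proteins and carriers, 15 were below background on all arrays, 7 had a difference above 0 and 10 below 0 over 8 arrays. HAPLN2 and HAPLN3, link proteins that fix proteoglycans to hyaluronan, had differences of -0.48 (SE 0.19, limma adjusted p = 0.303) and -0.45 (SE 0.18, adjusted p = 0.307), and of -0.43 and -0.41 without EV replicate 1 (adjusted p = 0.350 and 0.355). VCAN, which encodes the hyaluronan-binding proteoglycan versican and was also picked out after its values were seen, was at 7.73 in EV replicate 1 and at 10.35 to 11.60 in the other 7 tumours. Its difference was 1.15 (SE 0.67, adjusted p = 0.457) over 8 arrays and 0.38 (SE 0.30, adjusted p = 0.578) without EV replicate 1. All 6 receptors were below background on every array. Of these, STAB1, a scavenger receptor of hyaluronan, had a difference of -0.55 (SE 0.16, adjusted p = 0.209) and TLR4, a sensor of hyaluronan fragments, -0.37 (SE 0.15, adjusted p = 0.304). Without EV replicate 1 these were -0.52 and -0.45 (adjusted p = 0.214 and 0.210). The lower quartile of all named clusters was also lower on BORA arrays, at 4.65 to 4.76 against 4.85 to 4.88 on EV arrays. After quantile normalization the differences of STAB1 and TLR4 were -0.52 and -0.23.

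**Figure D4:**
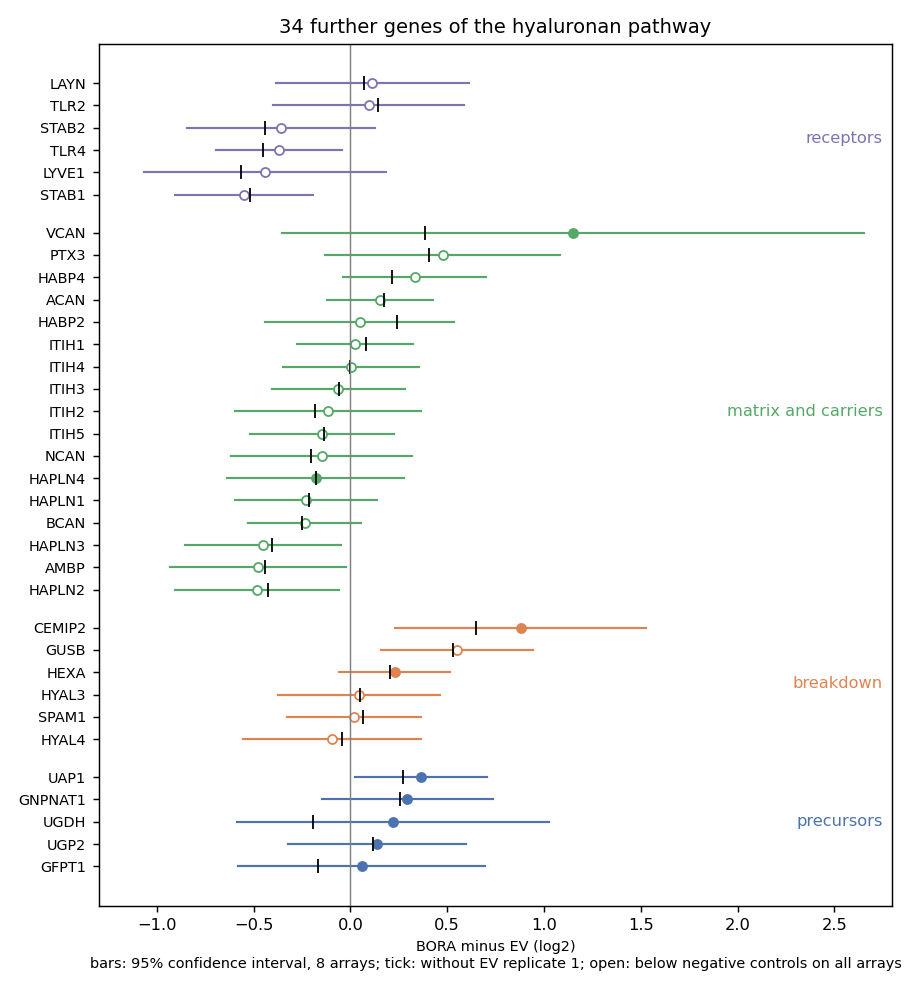
Difference between BORA and EV tumours on the log2 scale (horizontal axis) for 34 further genes of the pathway, grouped by role, with 95% confidence intervals over 8 arrays (bars) and the difference without EV replicate 1 (ticks). Open circles are genes below background on all arrays. None passed after adjustment. CEMIP2 (0.88) is the highest of the breakdown genes, and VCAN goes from 1.15 to 0.38 without EV replicate 1.

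Markers of other cell types were set beside the members. Of 7 endothelial markers, 5 were below background on all arrays, and the same 5 had a difference below 0, from -0.49 for TEK to -0.062 for KDR, the lowest of the list. The median over the 7 was -0.20. The other 2 had a difference above 0. PECAM1 was at 7.78 to 8.55 in BORA and 5.90 to 7.54 in EV tumours. CDH5, picked out after its values were seen, was at 7.03 to 8.30 and 4.48 to 6.56. Neither passed in limma (adjusted p = 0.137 and 0.129 over 8 arrays, 0.0830 and 0.0731 without EV replicate 1). Both were below background in every EV tumour, and exceeded it in 3 (PECAM1) and 2 (CDH5) BORA tumours. The summed level of the list was 9.12 to 9.69 in BORA and 8.44 to 9.04 in EV tumours on the log2 scale, while the means of its centred values overlapped, with -0.019 in BORA replicate 3 against 0.16 in EV replicate 4. KDR was at 3.01 to 3.36 over all tumours. The 8 leukocyte markers, 5 of them below background on all arrays, summed to 11.63 to 12.27 in BORA tumours, 12.68 to 13.22 in EV replicates 2 to 4 and 10.98 in EV replicate 1. PTPRC, the highest of these, was at 9.68 to 10.96, 12.19 to 12.94 and 6.91 in the same order, and AIF1, the lowest, was at 3.24 to 5.39 over all tumours. PTPRC weighed most in the sums of EV replicates 2 to 4. Its difference was -0.68 over 8 arrays (limma adjusted p = 0.803) and -2.07 without EV replicate 1 (adjusted p = 0.0194). It alone of the 8 passed, where 0.0791% of all clusters fell. CD68, picked out after its values were seen, had differences of 0.35 and 0.38, and the other 7 were below 0 in both fits. Differences above 0 were found for 46.6% and 46.1% of all clusters in these fits. For the 5 leukocyte and 5 endothelial markers below background on all arrays, signs carry little weight. As given above, the lower quartile of all named clusters was also lower on BORA arrays. The 8 fibroblast markers, 4 of them below background on all arrays, summed to 15.17 to 15.69 in BORA and 14.84 to 15.82 in EV tumours. COL1A2, the highest of them, was at 15.04 to 15.59 and 14.59 to 15.73, and THY1, the lowest, at 4.48 to 4.97 and 4.97 to 5.41. The part of these markers in the CEMIP and CD44 differences was not tested.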

How the data were processed

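The members, gene lists and tests were chosen with earlier results of these data known. The submitters' processing notes name Affymetrix Expression Console, without a version, as the program with which the authors made the deposited values; how background was corrected and arrays were normalized is not stated there. No label gives a log base. The range of the deposited values led to their reading as log2 signals, on which every fold depends. The row identifiers belong to another Affymetrix human array design than the one the series text names.

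Nothing was renormalized or filtered. Of 24351 entries in the table, 17709 clusters with a symbol were fitted with limma 3.58.1 in R 4.3.3 (lmFit and eBayes) on group alone, adjusted by Benjamini-Hochberg, and called at 0.05. Differences are BORA minus EV, with moderated SEs. The code was tested on simulated data. Scan dates and slides are not in the labels, and BORA tumours come before EV tumours in the titles' serial numbers, so a processing order behind them cannot be told apart from group. Precision is limited by how few arrays there are.

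The text names all members and BORA. From each gene list it names those past the threshold, filled up to 2 with the smallest p, and from the marker lists the highest and lowest with PAX8, EPCAM, KRT1 and PTPRC. It also names the 3 profiles nearest to any member spanning at least 2 log2 units. UGDH, VCAN, CDH5 and CD68 were added after their values were seen. The RefSeq promoter table matched 7 of 8 members. Listed pathway genes without a measured cluster were not analysed here.

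Alternatives changed 1 choice each: a block for replicate number, quantile normalization or median centring, a robust trended fit, array weights, leaving out dim clusters by either of 2 limits, testing every entry of the table, a test without moderation, averaging the clusters of a symbol, and omitting each array.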

Additional observations from a re-analysis of the deposited data

Results flagged for a closer look

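Of 64 groups of 4 tumours checked for a value far from the other 3, 3 held one, and chance gives about 1 in 20. The check covered the measured members, BORA and the genes picked by rule from the lists. KRT1, PAX8, EPCAM, UGDH, VCAN, CDH5 and CD68 were not in it, so the count leaves out their values in EV replicate 1. KRT1 was at 14.15 there against 4.41 to 4.45 in the other EV tumours. In the EV tumours, the squamous marker SPRR1B was at 8.25 in EV replicate 1 against 3.35 to 3.58 in the others, and PTPRC, the gene of the leukocyte phosphatase CD45, was at 6.91 there against 12.19 to 12.94. AIF1, a macrophage gene, was at 5.39 in EV replicate 2 against 3.38 to 3.62 in the other EV tumours, all below background. No value of the 7 measured hyaluronan genes stood apart by this measure.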

How the results depend on the processing

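Over 8 arrays, the count of members past the threshold was 0 and became 1, CEMIP, with array quality weights; leaving out 1 array gave 0 to 1, the 1 without EV replicate 1. Over the 7 arrays without EV replicate 1 the count was 1. It was 0 in the ordinary test without moderation, and 0 with clusters below the median or below the negative controls left out, since CEMIP was then not tested; leaving out a further array gave 1 to 1. The count of the 34 pathway genes was 0 under every alternative. The CEMIP difference ranged from 2.09 to 2.66 over 8 arrays and from 2.38 to 2.94 over 7 when an array was left out. CD44 stayed below 0 under every alternative, at -0.71 to -0.31 and -0.38 to -0.23 with an array left out. HAS2, HAS3 and HYAL2 kept their sign but not their size: with an array left out, HAS2 ranged from 0.19 (without BORA replicate 2) to 0.60 over 8 arrays and from 0.066 to 0.48 over 7, HAS3 from 0.019 (without EV replicate 4) to 0.14 and from 0.055 to 0.21, and HYAL2 from 0.074 to 0.18 and from 0.070 to 0.21. TNFAIP6 turned to -0.032 with array quality weights over 8 arrays and took both signs over 7, from -0.17 to 0.087, and HMMR over 7 ranged from -0.022 to 0.22 with an array left out. Quantile normalization over 8 arrays raised the differences of the dim members, to 0.54 for HAS2, 0.23 for HAS3, 0.20 for HYAL2 and 0.26 for TNFAIP6. ESRP1 over 7 ranged from -2.27 to 0.16 with an array left out. The causes were not tested. Same-numbered tumours did not deviate together (r from -0.11 to 0.071), and 1 of 8 correlated best with its own number. No pairing by number was seen, but so few tumours, with EV replicate 1 apart, cannot exclude it. The replicate block left 0 and 1 members past the threshold, as without it. Over all clusters 18 rose and 0 fell over 8 arrays, against 1 and 0 with the replicate block or in the ordinary test, 43 and 5 with array weights, 9 and 0 with either filter, and 1 to 77 and 0 to 14 with an array left out. Over 7 arrays 77 rose and 14 fell, against 74 and 5 with the block, 46 and 15 after centring, 78 and 28 with a trend, 52 and 10 or 34 and 6 with the filters, 40 and 5 over every entry of the table, 0 and 0 in the ordinary test, and 24 to 106 and 1 to 46 with an array left out. Signal over background limits 6 of the 7 members, CD44 being above it on all arrays.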
